A study of Mus musculus with 10 samples.

Results

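The semaphorin, ephrin, Slit and netrin genes and the genes of their receptors were compared between E17.5 and E11.5 distal tip cells of the mouse lung. Genes were taken by family symbol from the platform annotation of the deposited table, and 66 of 17813 genes tested belonged to these families. They were 20 semaphorins, 9 plexins, 2 neuropilins, 8 ephrins, 13 Eph receptors, 2 Slits, 4 Robos, 4 netrins and 4 Unc5 receptors. Each had 1 probe set naming it alone, so no member could be checked on a second one. All 66 symbols matched a RefSeq gene by identifier. The probe sets of 9 members (*Sema3b*, *Sema4a*, *Sema6a*, *Sema6c*, *Efna4*, *Efna5*, *Epha2*, *Epha7* and *Ephb4*) carry a suffix for possible matches to several transcripts. *Slit3* and *Ephb2* were not analysed here.

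The study hybridised RNA to 10 Affymetrix mouse arrays, 5 for each stage. At E17.5, GFP+ cells were isolated on a flow cytometer from lungs of *Id2-CreER; Rosa26R-fGFP* embryos whose mothers had received tamoxifen at E16.5, after the lungs had been brought to single cells. In these embryos the Cre recombinase is driven from *Id2*, so GFP marks cells that expressed *Id2* when tamoxifen acted, together with their descendants, and no second marker of the sort is given in the sources used here. The E11.5 cells were tip epithelium of embryos with the same genotype label, dissected by hand after dispase and with no tamoxifen stated. Stage cannot be told apart from tamoxifen or from the way of isolation. Arrays of a stage are labelled as biological replicates, and whether they stand for separate litters is not stated, so the p-values measure the spread between these samples.

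These 4 systems are best known for steering axons, and they also act where epithelia branch and where vessels grow. Semaphorins are secreted (class 3) or membrane-bound ligands that signal through plexins, and most class 3 members first bind a neuropilin. Ephrins sit on the cell surface, the A ephrins by a lipid anchor and the B ephrins by a transmembrane segment, and signal on contact through Eph receptor tyrosine kinases. Slits are secreted ligands of Robo receptors, and netrins are laminin-related secreted proteins that bind Unc5 receptors and DCC. In the embryonic lung, class 3 semaphorins and netrins are known to act on the branching of epithelial buds.

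The guidance genes changed in both directions in about equal numbers. In limma, with a Benjamini-Hochberg adjusted p under 0.05 over all genes, 25 of the 66 were higher at E17.5 (36.9% of all genes tested were) and 24 were lower (31.5% of all genes were), and 17 did not pass. Together 49 members passed, which is 74.2% of them, against 68.4% of all genes tested. At least 2-fold higher were 20 members (24.2% of all genes) and at least 2-fold lower were 15 (16.3% of all genes). The median log2 difference was -0.02 for the 66 members and 0.03 for all genes. The median size of the difference, without its sign, was 1.04 for the members and 0.71 for all genes. Every E17.5 array lay above every E11.5 array for 20 members (32.3% of all genes) and below every E11.5 array for another 20 (26.3% of all genes), so that the stages did not overlap for 40 members (58.6% of all genes). Of the 34 ligand genes 12 were higher and 14 lower, and of the 32 receptor genes 13 were higher and 10 lower. After quantile normalization between arrays, 22 members were higher and 29 lower, and after median centring 22 were higher and 25 lower. Of the members that passed, 43.1% and 46.8% were higher in these settings, against 45.0% and 47.4% of all genes that passed.

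**Figure D1:**
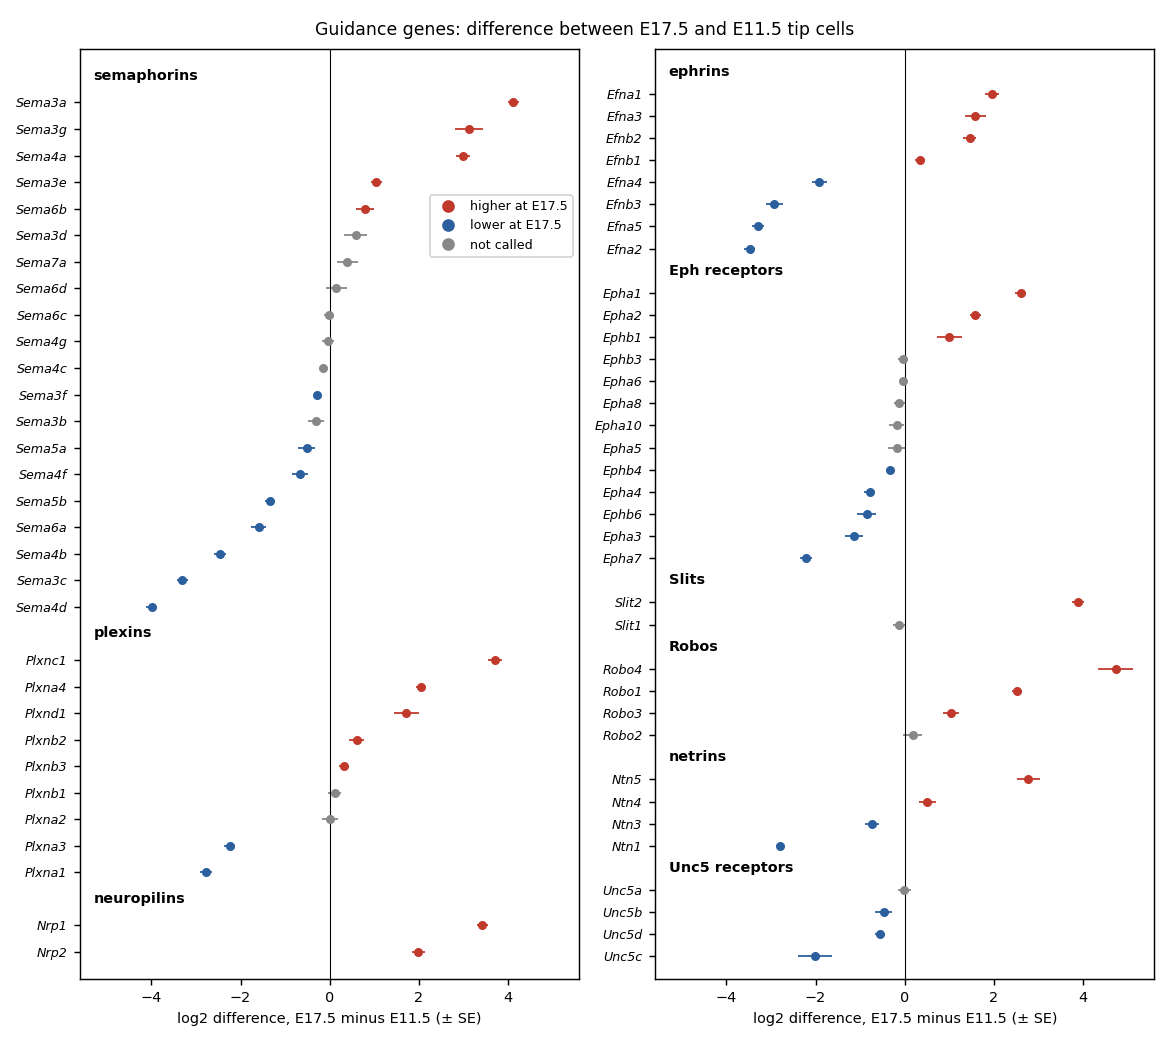
Log2 difference of each of the 66 guidance genes, E17.5 minus E11.5 (x axis), with its standard error, grouped by family (rows). Red points are genes higher at E17.5, blue points genes lower at E17.5 and grey points genes that did not pass in limma; the differences run from -4.00 for *Sema4d* to 4.73 for *Robo4*.

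The arrays separated by stage, and markers of other cell types and immediate early genes also differed between the stages. Correlations across genes were at least 0.984 within a stage and at most 0.847 between stages. The mean log2 signal of 17 pan-epithelial genes lay between 12.17 and 12.47 in E17.5 cells and between 11.37 and 11.63 in E11.5 tips. Of these 17 genes, 9 were higher and 4 lower at E17.5. All 9 alveolar type 1 markers were higher at E17.5. Of 10 alveolar type 2 markers, 9 were higher and 1 lower. Their mean lay between 12.23 and 12.54 in E17.5 cells and between 7.43 and 7.78 in E11.5 tips. The lower one, *Lpcat1*, was 26.6-fold lower, with signals of 3.06 to 3.32 at E17.5, against 7.81 to 7.98 at E11.5. All its E17.5 signals were under the lower quartile of all genes. The paper describes the protein of this gene as robust in later tip progenitors and further raised in differentiating alveolar cells. The RNA signal went the opposite way on the probe set used here, and protein was not measured on these arrays. Why the signal fell was not tested. Of 10 genes known from distal tips, 4 were higher and 4 lower. Endothelial markers were higher for 18 of 20 genes and lower for none, and their mean lay between 8.39 and 10.30 in E17.5 cells and between 5.32 and 6.23 in E11.5 tips. The macrophage list had 16 genes higher and 1 lower of 19, and its mean lay between 8.37 and 9.23 in E17.5 cells and between 5.42 and 6.27 in E11.5 tips. In the mesenchymal list 6 of 18 genes were higher and 7 lower, and the mean lay between 7.57 and 8.52 in E17.5 cells and between 7.17 and 8.24 in E11.5 tips. The neural list had 2 of 8 genes higher and 4 lower, and its mean lay between 5.39 and 5.86 in E17.5 cells and between 6.57 and 6.87 in E11.5 tips. Lymphocyte markers were higher for 8 of 11 genes and lower for 1, smooth muscle and pericyte markers for 4 and 5 of 10, mesothelial markers for 2 and 2 of 6, and erythroid markers for 1 and 4 of 8. Of all genes tested, 36.9% were higher and 31.5% lower. The share that passed ran from 62.5% of erythroid markers to 100% of both alveolar lists, against 68.4% of all genes. Immediate early genes, which respond within minutes to the handling of cells, were higher for 15 of 16 genes and lower for 1, and their mean was at least 11.75 on each E17.5 array and at most 8.03 on each E11.5 array. In such bulk samples, fewer cells of a type and less RNA per cell cannot be told apart. The part of other cells and of handling in the results on guidance genes was not tested.

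The sequences before the transcription start are shown for 4 members with a large rise and 2 with a large fall for which RefSeq gives 1 start, a choice made after the values were seen. Each run is the 150 bases before the start in GRCm38.p6, read 5′ to 3′ on the gene's strand, with capitals at matches, on either strand, to 5 motifs. The STAT motif was searched as TTCNNNGAA and the AP-1 motif as TGANTCA. The GC box was searched as GGGCGG, and the other two were the box named CCAAT and the TATA box, searched as TATAAA.
Sema3a (chr5:13396634-13396783, plus strand): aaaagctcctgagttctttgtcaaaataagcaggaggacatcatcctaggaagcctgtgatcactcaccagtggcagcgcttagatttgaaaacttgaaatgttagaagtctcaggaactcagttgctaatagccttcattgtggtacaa
Slit2 (chr5:47983005-47983154, plus strand): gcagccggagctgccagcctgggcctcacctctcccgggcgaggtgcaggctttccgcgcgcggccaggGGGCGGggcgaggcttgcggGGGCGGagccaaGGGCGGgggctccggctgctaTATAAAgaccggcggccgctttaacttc
Nrp1 (chr8:128358923-128359072, plus strand): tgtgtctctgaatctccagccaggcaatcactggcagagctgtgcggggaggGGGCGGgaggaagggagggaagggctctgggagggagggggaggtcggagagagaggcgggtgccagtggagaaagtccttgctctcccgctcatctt
Robo1 (chr16:72662999-72663148, plus strand): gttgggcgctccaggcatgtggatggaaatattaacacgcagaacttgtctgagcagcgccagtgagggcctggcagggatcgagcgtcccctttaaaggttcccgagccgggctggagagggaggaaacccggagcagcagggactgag
Sema3c (chr5:17574666-17574815, plus strand): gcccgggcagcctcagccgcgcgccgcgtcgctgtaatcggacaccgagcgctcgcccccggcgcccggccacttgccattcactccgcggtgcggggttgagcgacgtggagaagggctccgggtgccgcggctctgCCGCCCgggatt
Efna2 (chr10:80179332-80179481, plus strand): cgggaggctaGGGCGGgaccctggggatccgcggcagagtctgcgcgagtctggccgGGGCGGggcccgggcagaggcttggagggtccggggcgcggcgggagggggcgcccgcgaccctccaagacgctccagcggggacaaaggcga
The capitals in *Slit2* are 3 GC boxes and a TATA box, those in *Nrp1* and *Efna2* are 1 and 2 GC boxes, and those in *Sema3c* are 1 GC box read on the other strand (CCGCCC). The windows of *Sema3a* and *Robo1* held none of the 5 motifs. Over the 57 members with an entry in the RefSeq table, 69.9% of 73 such windows held a GC box, against 28.6% of 32851 windows of all genes. The GC box was found for 17 of 24 members that were higher and for 12 of 18 that were lower. The STAT motif was in 1.37% of the members' windows and in 4.09% of all windows, and the AP-1 motif was in 2.74% of the members' and 4.24% of all windows. For the CCAAT box these shares were 16.4% and 24.5%, in that order, and for the TATA box 2.74% and 7.57%. A match describes the letters only.

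Semaphorin genes moved apart from each other, also within a class. The share that passed was 65%, against 68.4% of all genes tested. Of 20 semaphorins, 5 were higher (*Sema3a*, *Sema3g*, *Sema4a*, *Sema3e* and *Sema6b*), 8 were lower (*Sema4d*, *Sema3c*, *Sema4b*, *Sema6a*, *Sema5b*, *Sema4f*, *Sema5a* and *Sema3f*) and 7 did not pass (*Sema3b*, *Sema3d*, *Sema4c*, *Sema4g*, *Sema6c*, *Sema6d* and *Sema7a*). The secreted class 3 had 3 higher and 2 lower of 7 genes, and the membrane-bound class 4 had 1 higher and 3 lower of 6. *Sema3a* encodes a secreted ligand best known for repelling growth cones. Its log2 signal was 11.80, 11.65, 11.51, 12.01 and 11.98 on the E17.5 arrays, against 7.79, 7.51, 7.80, 7.48 and 7.78 on the E11.5 arrays. Every E17.5 array was above every E11.5 array by a wide margin, with means of 11.79 ± 0.21 at E17.5 and 7.67 ± 0.16 at E11.5 (SD, n = 5 each), so that *Sema3a* was 17.3-fold higher (log2 difference 4.12, SE 0.12, adjusted p = 2.3e-11).

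*Sema3c*, a secreted relative of *Sema3a* that also binds neuropilins, went the opposite way. Its log2 signal was 7.53, 7.20, 7.04, 7.42 and 7.20 on the E17.5 arrays, against 10.30, 10.68, 10.80, 10.47 and 10.70 on the E11.5 arrays. The stages did not overlap, and *Sema3c* was 9.92-fold lower (log2 difference -3.31, SE 0.12, adjusted p = 1.9e-10). *Sema4d* encodes a membrane-bound ligand of plexin B1 that is well known on lymphocytes. Its log2 signal was 5.35, 4.97, 5.04, 5.16 and 5.29 on the E17.5 arrays, against 8.79, 9.38, 9.05, 9.26 and 9.31 on the E11.5 arrays. All E17.5 arrays were below all E11.5 arrays, and *Sema4d* was 16.0-fold lower (log2 difference -4.00, SE 0.13, adjusted p = 4.3e-11), the largest fall among the 66 genes. *Sema3g*, a class 3 gene known from arterial endothelium, had 7.60, 8.85, 7.98, 7.75 and 9.47 on the E17.5 arrays, against 5.50, 5.19, 5.17, 5.00 and 5.21 on the E11.5 arrays. It was 8.68-fold higher (log2 difference 3.12, SE 0.31, adjusted p = 2e-06), and on the E17.5 arrays it was highest on replicates 2 and 5.

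Among the other semaphorins, *Sema4a* was 7.97-fold and *Sema3e*, which encodes the ligand that binds plexin D1 directly, 2.06-fold higher. *Sema6b* was 1.73-fold higher. *Sema4b* was 5.52-fold lower, *Sema6a* 3.02-fold, *Sema5b* 2.53-fold, *Sema4f* 1.59-fold, *Sema5a* 1.43-fold and *Sema3f* 1.21-fold lower. The E17.5 and E11.5 arrays overlapped for *Sema4f* and *Sema5a*. *Sema5a* (adjusted p = 0.034) did not pass without E17.5 replicate 1 or 5 or without E11.5 replicate 2, 4 or 5 (adjusted p = 0.06 to 0.084). The 7 genes that did not pass had log2 differences of -0.31 to 0.59. Of these, *Sema4c* passed as lower after quantile normalization (log2 difference -0.70) and median centring (-0.27), *Sema4g* after quantile normalization (-0.63), and *Sema3b* after quantile normalization (-0.45) and without E17.5 replicate 1 (-0.46). *Sema3d* passed as higher without E17.5 replicate 1 (0.83), whose signal of 5.28 was the lowest of the 5 E17.5 arrays.

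Both neuropilin genes were higher and the A plexins, which signal for class 3 semaphorins once a neuropilin has bound them, were split. *Nrp1*, which encodes a receptor of semaphorin 3A and of the vascular growth factor VEGF-A, had 11.41, 11.75, 11.94, 11.84 and 11.77 on the E17.5 arrays, against 8.52, 8.24, 8.35, 8.39 and 8.09 on the E11.5 arrays. No array of a stage came near the other stage, and *Nrp1* was 10.8-fold higher (log2 difference 3.43, SE 0.12, adjusted p = 8.1e-11). *Nrp2* had 9.95, 9.65, 9.52, 9.52 and 9.94 on the E17.5 arrays, against 8.21, 7.50, 7.63, 7.68 and 7.63 on the E11.5 arrays. It was 3.96-fold higher (log2 difference 1.99, SE 0.15, adjusted p = 1.1e-07), again with no overlap, and 8.21 on E11.5 replicate 1 stood apart from the other E11.5 arrays.

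Of 9 plexin genes, 5 were higher, 2 were lower and *Plxnb1* and *Plxna2* did not pass. So 77.8% of the plexin genes passed, against 68.4% of all genes. *Plxnc1* encodes the receptor of semaphorin 7A and had 8.96, 9.08, 8.57, 8.33 and 8.69 on the E17.5 arrays, against 5.29, 4.65, 4.97, 5.22 and 5.00 on the E11.5 arrays. The arrays did not overlap and *Plxnc1* was 13.0-fold higher (log2 difference 3.70, SE 0.16, adjusted p = 7.4e-10), with 2 of its E11.5 signals under the lower quartile of all genes (4.85 to 5.02 over the arrays). *Plxna4* had 7.55, 7.28, 7.27, 7.07 and 7.26 on the E17.5 arrays, against 5.14, 5.26, 5.33, 5.40 and 5.09 on the E11.5 arrays. It was 4.11-fold higher (log2 difference 2.04, SE 0.10, adjusted p = 3.1e-09), with no overlap between stages. *Plxna1* and *Plxna3*, both signalling partners of neuropilins, were lower. *Plxna1* had 6.60, 6.37, 5.87, 6.26 and 6.58 on the E17.5 arrays, against 8.92, 9.21, 9.06, 9.22 and 9.14 on the E11.5 arrays. It was 6.85-fold lower (log2 difference -2.78, SE 0.14, adjusted p = 2.4e-09). *Plxna3* had 5.63, 5.47, 5.79, 6.04 and 6.03 on the E17.5 arrays, against 8.14, 7.80, 8.19, 7.96 and 8.08 on the E11.5 arrays. It was 4.73-fold lower (log2 difference -2.24, SE 0.13, adjusted p = 9.5e-09), and for both genes every E17.5 array was below every E11.5 array. *Plxnd1*, the endothelial receptor of semaphorin 3E, was 3.28-fold and *Plxnb2* 1.52-fold higher, although *Plxnb2* did not pass after quantile normalization (log2 difference 0.10). *Plxnb3* was 1.24-fold higher with a signal under that quartile on all 10 arrays, and it did not pass after median centring (log2 difference 0.18).

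Set side by side, *Sema3a* and *Nrp1* were higher. Of the A plexins, *Plxna4* was higher, *Plxna1* and *Plxna3* were lower and *Plxna2* did not pass. *Sema3e* and *Plxnd1* were both higher. *Plxnc1* was 13.0-fold higher while its ligand gene *Sema7a* had a log2 difference of 0.40 (adjusted p = 0.16), which passed with array weights (0.57, adjusted p = 0.045). *Sema4d* was 16.0-fold lower while *Plxnb1* had a log2 difference of 0.11 (adjusted p = 0.52), which turned to -0.47 and passed as lower after quantile normalization (adjusted p = 0.014).

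**Figure D2:**
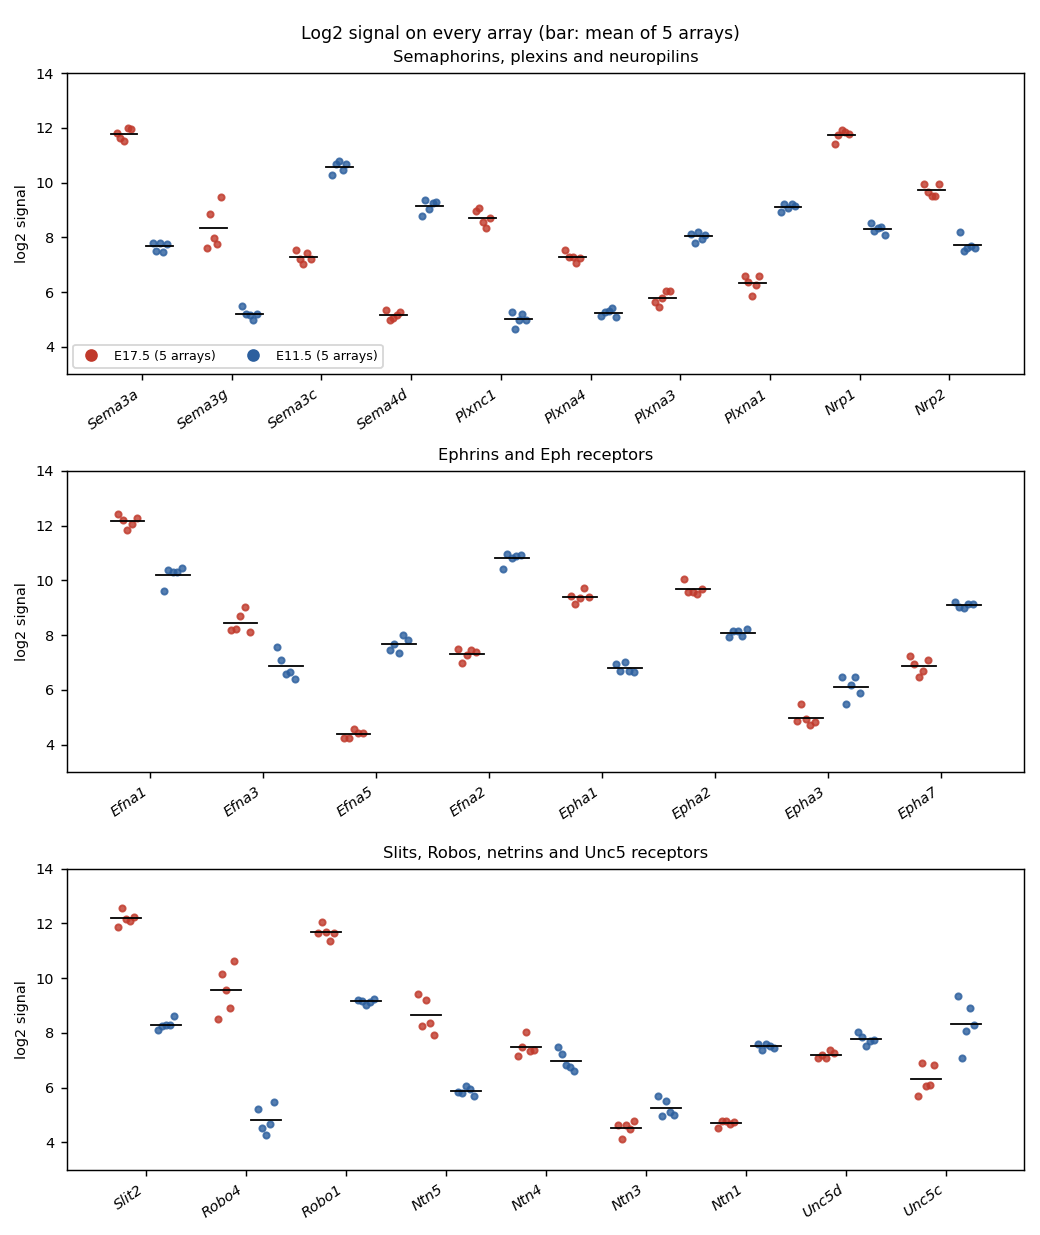
Log2 signal (y axis) of the 27 members chosen by the naming rule (x axis), on the 5 arrays of E17.5 (red, left of each pair) and the 5 arrays of E11.5 (blue, right), the bar marking the mean of a stage. The stages overlap for *Ntn4* alone among these 27 genes, and the spread between E17.5 arrays is wide for *Robo4* (8.50 to 10.63) and *Sema3g* (7.60 to 9.47).

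All 8 ephrin genes passed, 4 higher and 4 lower, where 68.4% of all genes passed. Among the A ephrins, *Efna1* and *Efna3* were higher and *Efna2*, *Efna5* and *Efna4* lower, and among the B ephrins *Efnb2* and *Efnb1* were higher and *Efnb3* lower. *Efna1*, an A ephrin found on endothelium and many epithelia, had 12.44, 12.20, 11.84, 12.08 and 12.27 on the E17.5 arrays, against 9.62, 10.38, 10.31, 10.31 and 10.44 on the E11.5 arrays. It was 3.87-fold higher (log2 difference 1.95, SE 0.16, adjusted p = 3.6e-07), and 9.62 on E11.5 replicate 1 stood apart from the other 4 E11.5 arrays. *Efna3* had 8.20, 8.21, 8.70, 9.02 and 8.11 on the E17.5 arrays, against 7.57, 7.09, 6.59, 6.66 and 6.40 on the E11.5 arrays. The stages did not overlap, and it was 3.0-fold higher (log2 difference 1.59, SE 0.24, adjusted p = 7.1e-05).

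*Efna2* showed the largest fall among the ephrins. It had 7.49, 6.98, 7.28, 7.47 and 7.39 on the E17.5 arrays, against 10.43, 10.96, 10.81, 10.90 and 10.92 on the E11.5 arrays. The E17.5 arrays were all far below the E11.5 arrays, and *Efna2* was 11.2-fold lower (log2 difference -3.48, SE 0.13, adjusted p = 1.9e-10). *Efna5*, known from the mapping of retinal axons, had 4.24, 4.24, 4.56, 4.43 and 4.42 on the E17.5 arrays, against 7.48, 7.69, 7.34, 8.02 and 7.81 on the E11.5 arrays. It was 9.78-fold lower (log2 difference -3.29, SE 0.13, adjusted p = 3.2e-10), with every E17.5 signal under the lower quartile of all genes. *Efnb3* was 7.61-fold and *Efna4* 3.77-fold lower. *Efnb2*, which encodes the ephrin of arterial endothelium, was 2.74-fold higher, with signals of 11.08 to 11.72 at E17.5, against 9.60 to 10.18 at E11.5. *Efnb1* was 1.27-fold higher, its arrays overlapped, and it did not pass after median centring (log2 difference 0.21) or quantile normalization (-0.17).

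Of 13 Eph receptor genes, 3 were higher (*Epha1*, *Epha2* and *Ephb1*), 5 were lower (*Epha7*, *Epha3*, *Ephb6*, *Epha4* and *Ephb4*) and 5 did not pass. The share of Eph receptor genes that passed was 61.5%, against 68.4% of all genes. *Epha1*, known mainly from epithelia, had 9.43, 9.13, 9.35, 9.71 and 9.38 on the E17.5 arrays, against 6.93, 6.71, 7.03, 6.69 and 6.64 on the E11.5 arrays. It was 6.06-fold higher (log2 difference 2.60, SE 0.12, adjusted p = 1.3e-09). *Epha2*, a receptor of ephrin A1 in epithelial cells, had 10.06, 9.57, 9.56, 9.51 and 9.68 on the E17.5 arrays, against 7.94, 8.16, 8.17, 7.96 and 8.22 on the E11.5 arrays. It was 3.0-fold higher (log2 difference 1.58, SE 0.12, adjusted p = 1e-07), and for both genes every E17.5 array was above every E11.5 array. *Epha7* had 7.23, 6.96, 6.48, 6.68 and 7.07 on the E17.5 arrays, against 9.22, 9.02, 9.0, 9.15 and 9.13 on the E11.5 arrays. All E17.5 arrays were lower, and *Epha7* was 4.65-fold lower (log2 difference -2.22, SE 0.14, adjusted p = 1.8e-08). *Epha3* had 4.87, 5.48, 4.94, 4.70 and 4.81 on the E17.5 arrays, against 6.47, 5.50, 6.17, 6.48 and 5.90 on the E11.5 arrays. It was 2.21-fold lower (log2 difference -1.14, SE 0.20, adjusted p = 0.00027), with 5.48 on the highest E17.5 array and 5.50 on the lowest E11.5 array, and 4 of its E17.5 signals were under the lower quartile of all genes.

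*Ephb4*, the venous receptor of ephrin B2, was 1.25-fold lower, with 9.94 to 10.32 at E17.5, against 10.38 to 10.52 at E11.5, while *Efnb2* was higher. *Epha4* was 1.73-fold lower with no overlap, and *Ephb6*, which lacks kinase activity, was 1.8-fold lower with overlapping arrays. *Ephb1* was 2.0-fold higher (adjusted p = 0.0065) with overlapping arrays and 3 of its E11.5 signals under that quartile. *Ephb3*, *Epha5*, *Epha6*, *Epha8* and *Epha10* had log2 differences of -0.18 to -0.04. Of these, *Ephb3* had signals of 8.44 to 8.99 at E17.5, against 8.64 to 9.03 at E11.5, and it passed as lower after quantile normalization (log2 difference -0.52). *Epha5*, *Epha6* and *Epha8* were under the lower quartile of all genes on all 10 arrays.

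*Slit2* and 3 of 4 Robo genes were higher, and none of the Slit and Robo genes was lower (36.9% and 31.5% of all genes were). *Slit2*, which encodes a ligand of Robo1, had 11.88, 12.58, 12.15, 12.10 and 12.23 on the E17.5 arrays, against 8.10, 8.24, 8.30, 8.28 and 8.60 on the E11.5 arrays. The lowest E17.5 array was more than 3 log2 units above the highest E11.5 array, and *Slit2* was 14.7-fold higher (log2 difference 3.88, SE 0.13, adjusted p = 9.9e-11). *Robo1* had 11.64, 12.06, 11.68, 11.34 and 11.66 on the E17.5 arrays, against 9.21, 9.18, 9.02, 9.14 and 9.22 on the E11.5 arrays. The stages did not overlap, and *Robo1* was 5.74-fold higher (log2 difference 2.52, SE 0.12, adjusted p = 1.7e-09). *Slit1* had a log2 difference of -0.12 (adjusted p = 0.44), with signals of 5.84 to 6.45 at E17.5, against 5.99 to 6.43 at E11.5.

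*Robo4*, a member of the family known from endothelium, had 8.50, 10.16, 9.58, 8.90 and 10.63 on the E17.5 arrays, against 5.22, 4.51, 4.25, 4.66 and 5.48 on the E11.5 arrays. Every E17.5 array was higher than every E11.5 array, but the E17.5 arrays spanned over 2 log2 units, with replicates 2 and 5 highest. *Robo4* was 26.5-fold higher (log2 difference 4.73, SE 0.38, adjusted p = 2.7e-07), the largest difference upwards among the 66 genes as measured, with 3 of its 5 E11.5 signals under the lower quartile of all genes. *Robo3*, which modulates Slit signalling in crossing axons, was 2.06-fold higher, with 5.79 to 6.57 at E17.5, against 5.00 to 5.41 at E11.5. *Robo2* did not pass (log2 difference 0.18, adjusted p = 0.48), and its signal was under the lower quartile of all genes on 9 of 10 arrays. These counts were the same after quantile normalization and median centring.

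The netrin genes were split, 2 higher and 2 lower, and no Unc5 gene was higher. Of all genes tested, 36.9% were higher and 31.5% lower. *Ntn1*, which encodes the founding attractant of commissural axons, had 4.52, 4.77, 4.79, 4.68 and 4.73 on the E17.5 arrays, against 7.60, 7.36, 7.61, 7.52 and 7.46 on the E11.5 arrays. The E17.5 signals were all under the lower quartile of all genes and all below the E11.5 signals, and *Ntn1* was 7.01-fold lower (log2 difference -2.81, SE 0.09, adjusted p = 3.5e-11). *Ntn3* had 4.62, 4.14, 4.62, 4.48 and 4.77 on the E17.5 arrays, against 5.71, 4.98, 5.50, 5.11 and 5.01 on the E11.5 arrays. It was 1.66-fold lower (log2 difference -0.73, SE 0.17, adjusted p = 0.0017), with low signals at E17.5. *Ntn5* had 9.43, 8.27, 9.21, 8.37 and 7.92 on the E17.5 arrays, against 5.86, 5.80, 6.06, 5.94 and 5.68 on the E11.5 arrays. All E17.5 arrays were above the E11.5 arrays, and *Ntn5* was 6.84-fold higher (log2 difference 2.77, SE 0.26, adjusted p = 9.3e-07). *Ntn4*, a netrin of basement membranes, had 7.15, 7.47, 8.03, 7.36 and 7.39 on the E17.5 arrays, against 7.47, 7.22, 6.82, 6.76 and 6.61 on the E11.5 arrays. The arrays overlapped, *Ntn4* was 1.42-fold higher (log2 difference 0.50, SE 0.19, adjusted p = 0.036), and it did not pass after quantile normalization (log2 difference 0.34, adjusted p = 0.12), after median centring (0.37, adjusted p = 0.088), or without E17.5 replicate 2 or 3 or E11.5 replicate 3, 4 or 5 (0.36 to 0.50, adjusted p = 0.059 to 0.09).

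The Unc5 genes encode receptors that turn netrin into a repellent, and 3 of 4 were lower (31.5% of all genes were). *Unc5c* had 5.70, 6.91, 6.05, 6.11 and 6.81 on the E17.5 arrays, against 9.33, 7.10, 8.09, 8.92 and 8.28 on the E11.5 arrays. The highest E17.5 array (6.91) was just below the lowest E11.5 array (7.10), and *Unc5c* was 4.07-fold lower (log2 difference -2.03, SE 0.38, adjusted p = 0.00045). *Unc5d* had 7.09, 7.20, 7.07, 7.38 and 7.28 on the E17.5 arrays, against 8.03, 7.86, 7.51, 7.69 and 7.75 on the E11.5 arrays. It was 1.48-fold lower (log2 difference -0.56, SE 0.11, adjusted p = 0.00058), with no overlap. *Unc5b*, known from endothelial tip cells of vessels, was 1.39-fold lower (adjusted p = 0.044) with overlapping arrays. It did not pass without E17.5 replicate 1, 3 or 4 or without any 1 of the 5 E11.5 replicates (adjusted p = 0.062 to 0.098). *Unc5b* passed without both E17.5 replicates 2 and 5 (log2 difference -0.77, adjusted p = 0.00049), a comparison added after the values were seen. *Unc5a* had a log2 difference of -0.01 (adjusted p = 0.97).

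Some members were highest on the same replicates as markers of other cells. The endothelial list mean on E17.5 replicates 1 to 5 was 8.77, 10.04, 9.19, 8.39 and 10.30, highest on replicates 2 and 5. On these same 2 arrays 15 of the 66 members (22.7%) had their highest E17.5 signals, against 7.66% of all genes and 19 of the 20 endothelial markers. The arrays were picked by the mean of that list, so the share of endothelial markers was partly set by the choice. The 15 were *Robo4*, *Plxnd1*, *Sema3g*, *Sema3e*, *Sema4c*, *Sema6b*, *Slit2*, *Efnb1*, *Efnb2*, *Epha6*, *Ephb1*, *Ephb4*, *Plxnb3*, *Unc5b* and *Unc5c*. Among them, *Epha6* and *Plxnb3* were under the lower quartile of all genes on all 10 arrays, and *Sema4c* spanned only 9.29 to 9.45 at E17.5. For *Plxnd1* the E17.5 signals were 8.48, 9.51, 8.59, 8.51 and 9.92, and the E11.5 signals were 7.47, 6.76, 7.33, 7.33 and 7.53. Of the mesenchymal markers, 12 of 18 were also highest on these 2 arrays. Without E17.5 replicates 2 and 5, a comparison added after the values were seen, *Robo4* had a log2 difference of 4.17, *Sema3g* of 2.56, *Plxnd1* of 1.24 and *Slit2* of 3.74. *Ephb1* had 0.62 (1.00 on all arrays) and *Sema6b* 0.47 (0.79 on all arrays), while *Efnb1* (0.25, adjusted p = 0.12) and *Plxnb3* (0.23, adjusted p = 0.11) did not pass. The falls were larger for *Unc5b* (-0.77, against -0.48 on all arrays), *Unc5c* (-2.39, against -2.03) and *Ephb4* (-0.43, against -0.32). In this comparison 22 members were higher and 23 lower. Of the members that passed in it, 48.9% were higher, against 55% of all genes that passed. The part of endothelial cells in these values was not tested.

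At E11.5 the mesenchymal list mean on replicates 1 to 5 was 8.24, 7.17, 7.79, 8.11 and 7.65. It was highest on replicates 1 and 4 and lowest on replicate 2, as was *Unc5c*. The same was so for 2 other lists. The smooth muscle and pericyte list mean was 8.46, 7.40, 7.81, 8.57 and 7.61. The mesothelial list mean was 6.73, 5.28, 5.66, 6.16 and 6.03. *Epha3*, at 6.47, 5.50, 6.17, 6.48 and 5.90, was also highest on replicates 1 and 4 and lowest on replicate 2. On replicates 1 and 4, 12 of the 66 members (18.2%) had their highest E11.5 signals, against 12.6% of all genes and 12 of the 18 mesenchymal markers. The share of mesenchymal markers was again partly set by the choice of arrays. Without these 2 arrays, again added after the values were seen, *Unc5c* had a log2 difference of -1.50 and *Epha3* of -0.90, both still lower in limma, and 24 members were higher and 22 lower. Of the members that passed there, 52.2% were higher, against 55% of all genes that passed. The median standard deviation between arrays was 0.26 at E17.5 and 0.20 at E11.5 for the members, and 0.21 and 0.16 for all genes at the same stages.

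**Figure D3:**
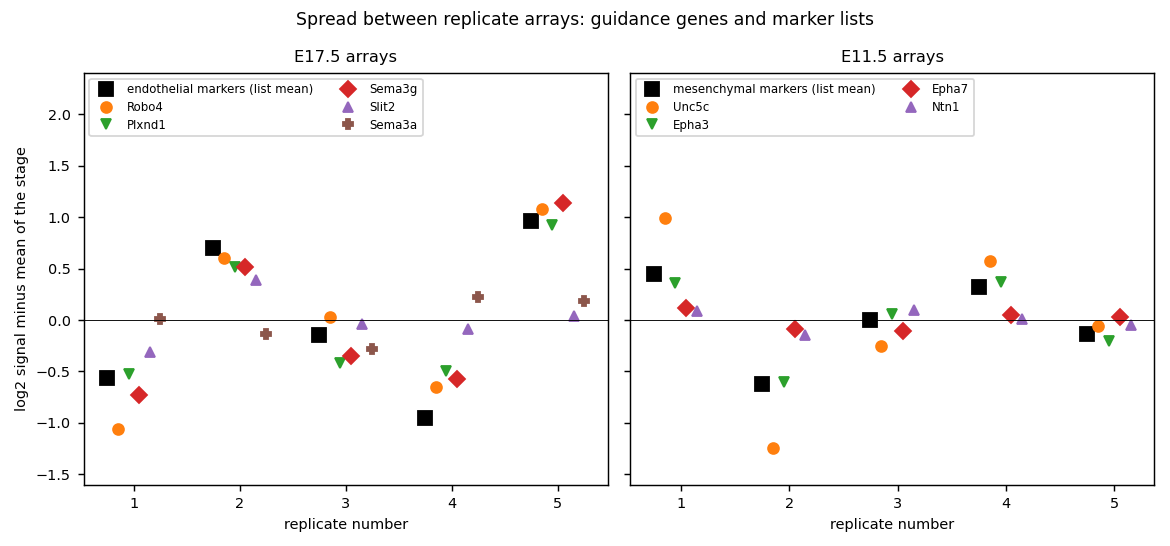
Log2 signal minus the mean of the stage (y axis) for each replicate (x axis) of E17.5 (left) and E11.5 (right), for a marker list mean (black squares) and single members chosen after the values were seen (coloured). On the left *Robo4*, *Plxnd1* and *Sema3g* are highest on replicates 2 and 5, as is the endothelial list (10.04 and 10.30), and on the right *Unc5c* and *Epha3* are highest on replicates 1 and 4, as is the mesenchymal list (8.24 and 8.11).

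Partners and effectors of the same systems changed too. Of 112 genes listed, 105 were measured and 53 were higher and 34 lower (36.9% and 31.5% of all genes were). Their median log2 difference was 0.42, against 0.03 for all genes. After quantile normalization it was 0.11, against -0.04 for all genes, and after median centring 0.29, against -0.10. In 4 of the sublists, 14 of 34 plexin and neuropilin partners were higher and 12 lower, 14 of 28 Eph and ephrin effectors were higher and 10 lower, and 6 of 12 Slit and Robo effectors were higher and 3 lower. Of 15 netrin and repulsive guidance partners, 8 were higher and 6 lower. *Nck2*, which encodes an adaptor that couples ephrin B and Eph receptors to actin, averaged 12.57 ± 0.03 at E17.5 and 7.76 ± 0.20 at E11.5 (SD, n = 5 each) and was 28.2-fold higher. The integrin chain *Itgb1* was 25.9-fold, the VEGF receptor *Kdr*, which also stands in the endothelial list, 18.0-fold and *Farp1* 15.8-fold higher. *Pak2*, which encodes a kinase activated by Rac and Cdc42, averaged 3.90 ± 0.23 at E17.5 and 9.22 ± 0.07 at E11.5 (SD, n = 5 each) and was 40.1-fold lower by these signals, those at E17.5 all being under the lower quartile of all genes. *Dpysl5*, of the collapsin response mediators, was 18.3-fold lower, also with all its E17.5 signals under that quartile. The adaptor gene *Grb10* was 11.4-fold and *Dock1*, a Rac exchange factor gene, 9.17-fold lower.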

How the data were processed

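Log2 signals were deposited by the authors as 1 table with a column for each of the 10 arrays, made with Bioconductor in R from NuGEN-amplified RNA on Affymetrix mouse arrays. The background correction, the normalization and the choice of the 21204 probe sets are not stated in the sources used here. The log2 scale was read from the values (2.47 to 15.03), and detection calls were not used here. Of the probe sets, 17981 name 1 gene in the platform annotation, and for each of 17813 genes the probe set with the highest mean was used. Array medians were 7.01 to 7.23, and the number of arrays limits the precision.

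A linear model with stage as its one term was fitted to the deposited values with limma 3.58.1 (lmFit, then eBayes) in R 4.3.3, without a filter, as E17.5 minus E11.5. The p-values were adjusted over all 17813 genes by the Benjamini-Hochberg method. Folds are 2 to the power of the log2 difference. The code was tested on simulated data in which few genes changed, whereas 68.4% of all genes passed here. That test does not show how the calls behave where so many genes change. Values on every array are given for up to 2 of the largest rises and up to 2 of the largest falls among called members of each family, and for partner genes the 4 largest rises and falls are named. Members, lists and rules were chosen with earlier results of these data known. Replicate numbers did not pair the arrays. Sequences are from RefSeq (GRCm38.p6), and figures were drawn with matplotlib 3.10.9 in Python 3.11.15. The closing section gives the alternatives. The result of 1 sublist of partner genes is not reported here.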

Additional observations from a re-analysis of the deposited data

Results flagged for a closer look

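Each stage of the 66 guidance genes and the 8 named partner genes was searched for an array whose gap to the nearest other array exceeded 0.71 of the range of the 5 arrays. This was so for 11 of 148 groups, and about 1 group in 20 does so by chance. In 7 of the 11 the array was E11.5 replicate 1. There, *Efna1* was 9.62 on the log2 scale (nearest of the others 10.31), *Efna2* 10.43 (nearest 10.81), *Efna4* 9.31 (nearest 9.96), *Epha5* 4.92 (nearest 4.31), *Nrp2* 8.21 (nearest 7.68), *Plxnb1* 11.25 (nearest 10.91) and *Dock1* 8.09 (nearest 8.66). On E11.5 replicate 2 *Plxnd1* was 6.76 (nearest 7.33), and on E11.5 replicate 5 *Sema6c* was 5.75 (nearest 5.96). On E17.5 replicate 3 *Sema3e* was 10.67 (nearest 11.01), and on E17.5 replicate 5 *Sema7a* was 6.61 (nearest 5.59). Without E11.5 replicate 1, 25 members were higher and 23 lower.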

How the results depend on the processing

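Of the 49 members that passed, 43 kept their direction and their side of the threshold under all 20 alternatives that measured them, and *Efnb1*, *Ntn4*, *Plxnb2*, *Plxnb3*, *Sema5a* and *Unc5b* did not. Averaging the probe sets of a gene could not change the values of any member, as each had 1 probe set. Leaving out suffixed probe sets measured 57 members, and leaving out genes with a mean under the median measured 30. Both kept the values of the measured members, so only their p-values could change. Of the 17 others, *Ephb3*, *Plxnb1*, *Sema3b*, *Sema3d*, *Sema4c*, *Sema4g* and *Sema7a* passed under at least 1 alternative. Leaving out 1 array gave 24 to 26 members higher and 22 to 24 lower. Detection calls were not used here, so it is not known which low signals lay above background.

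The median log2 difference of all genes was 0.03, and it was -0.038 after quantile normalization, -0.10 after median centring and 0.25 without genes whose mean was under the median. The median of the members was -0.10, -0.16 and 0.23 under these settings, and that of the partner list 0.11, 0.29 and 0.70. The last setting left 8907 genes with 30 members and 76 partner genes. In it 15 members were higher and 11 lower, 13 and 6 of them at least 2-fold, and 3048 of all genes were lower, 1414 of them at least 2-fold. Of all genes called, the share that was higher was 53.9%, and it was 45.0% after quantile normalization and 47.4% after median centring.

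Replicate numbers did not pair the arrays (correlations of -0.29 to 0.07 between same-numbered arrays), and no array correlated best with its own number. With the replicate block, 24 members were higher and 24 lower, and *Ntn4* did not pass (adjusted p = 0.065).

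These sign changes were of members that did not pass, apart from *Efnb1*, and their cause was not tested. After quantile normalization the log2 difference was -0.17 for *Efnb1*, 0.043 for *Epha6*, -0.012 for *Plxna2* and -0.47 for *Plxnb1*. After median centring it was -0.12 for *Plxna2* and -0.018 for *Plxnb1*. With array weights it was 0.022 for *Epha6*, -0.039 for *Plxna2*, 0.0059 for *Sema6c* and 0.0096 for *Unc5a*. Without E17.5 replicates 2 and 5 it was 0.057 for *Epha10*, 0.0026 for *Epha8*, -0.035 for *Robo2* and 0.037 for *Sema4g*. Without E11.5 replicates 1 and 4 it was 0.0031 for *Sema4g*, 0.029 for *Sema6c* and 0.055 for *Unc5a*. Both comparisons without a pair of arrays were chosen after seeing the data. Leaving out 1 array gave log2 differences of -0.075 to 0.0058 for *Epha6*, -0.10 to 0.037 for *Ephb3*, -0.11 to 0.11 for *Plxna2*, -0.15 to 0.037 for *Sema4g*, -0.076 to 0.057 for *Sema6c*, -0.035 to 0.30 for *Sema6d* and -0.11 to 0.086 for *Unc5a*.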
